A study of Mus musculus with 6 samples.

Results

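The cytosolic ribosomal protein genes were described in skin taken from around incisional wounds of mice. Members were all rows of the gene table with an Rpl or Rps symbol of a cytosolic ribosomal protein, plus Rplp0, Rplp1, Rplp2 and Rpsa, whose FPKM averaged 1 or more across all 6 libraries. FPKM is a read density, the fragments assigned to a gene divided by transcript length and by the number of mapped fragments. The rule gave 76 genes of the 23913 rows used, and all 76 rows with such a symbol passed the minimum, as did 13392 rows of the table as a whole. They comprised 43 genes of the large subunit, 30 of the small subunit and the 3 genes of the stalk, Rplp0, Rplp1 and Rplp2. Rows for Fau, Rps3a1 and the paralogues of members lay outside the rule. The mice were labelled C3H, in the methods female C3Hf/Kam, and were 8 to 10 weeks old, and the wounds received topical vehicle or 2 mg of vemurafenib, an inhibitor of the kinase BRAF, every other day. Skin was taken on days 2, 6 and 14, and each arm and day gave 1 library, 6 in all. The sample labels describe the control wounds as untreated, while the methods of the study describe a vehicle of DMSO in PBS. The number of mice behind a library is not given in the sources used here.

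A ribosome is built from ribosomal RNA and about as many copies of each ribosomal protein as there are ribosomes, so cells make these proteins in near-equal amounts. Their messenger RNAs are short and among the most abundant of any tissue, and most carry a tract of pyrimidines at the very start, through which the kinase mTOR adjusts their translation. Mammalian genomes also hold many processed copies of these genes, made by reverse transcription of the messenger RNA. Most such copies are pseudogenes, and a read from a member can often be aligned to its copies as well.

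The depth of the libraries is unknown because the values are FPKM, so no counting error is given, and since each arm and day has 1 library, differences within a day carry no replicate check. Summed FPKM lay between 692634 and 931171 per library. The small RNA row Mir6236 alone held 13.9% of the sum in the vehicle library of day 6. In 4 columns 50.3% to 58.1% of the values were written with over 6 significant digits, as an average would be, whereas vehicle day 14 and vemurafenib day 2 did not; these 2 columns also listed the most genes at 0, 6000 and 6088 against 5214 to 5446. Markers of keratinocytes, macrophages, neutrophils, fibroblasts and skeletal muscle were all above 0 in every library, and 4 of 5 T cell markers had a row, none at 0. Markers of B cells summed to at most 2.33 FPKM.

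Near-identical copies were the first property to settle, because they decide which rows can be read gene by gene. Of the 75 members with a gene model in the annotation of the mm9 genome (NCBIM37), 72 had at least 1 further place in the genome that matched at least 80% of the coding sequence at 95% identity or more. There were 569 such copies, with a median of 6 per member and a highest number of 55 for Rpl21. The remaining 3 had none, and Rpl41 had no gene model to search with. Of the copies, 413 had a gene model of their own, 50 lay inside another gene, 106 lay where no gene was annotated, and 13, belonging to 12 members, had a row in the table. For 5 members, Rps27, Rpl26, Rpl30, Rpl34 and Rps15a, the copy row had a higher mean than the member itself. Values of these 5 are therefore given together with those of the copy, and counts are also given for the other 71 members. Reads shared with copies that have no row cannot be seen here, so those 71 are not shown to be free of such sharing.

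Rps27, a zinc-binding protein of the small subunit, showed the widest exchange with a copy row. It was at 964 FPKM in the vehicle library of day 2, 405 FPKM on day 6 and 662 FPKM on day 14, and at 309, 3206 and 21.2 FPKM with vemurafenib on the same days. The row Rps27rt was at 5715, 6015 and 3218 FPKM with vehicle and at 4864, 1731 and 5952 FPKM with vemurafenib. Rps27 was highest in the library where Rps27rt was lowest, vemurafenib day 6. Across the vemurafenib libraries the rows ran in opposite order, while with vehicle both were lower on day 14 than on day 2. Rps27 lies at chr3:90016593-90017573 on the minus strand and Rps27rt at chr9:114891571-114891825, also on the minus strand (NCBIM37), where it is annotated as protein coding. Their coding sequences of 255 bases are identical, and over 341 aligned bases the transcript of Rps27 and that of the copy, of 345 and 344 bases, had 0 mismatches. The shared coding sequence is shown because no read inside it can be assigned to 1 of these genes.
Rps27 and Rps27rt: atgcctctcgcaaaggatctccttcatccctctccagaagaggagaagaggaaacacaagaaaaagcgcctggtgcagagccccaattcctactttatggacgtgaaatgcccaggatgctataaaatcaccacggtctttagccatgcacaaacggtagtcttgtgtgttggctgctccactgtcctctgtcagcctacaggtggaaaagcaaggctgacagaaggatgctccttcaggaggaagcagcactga

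The sum of both rows lay between 3879.8 and 6679.6 FPKM, a range of 1.72-fold, while the share held by Rps27 ran from 0.355% to 64.9%. Log2 ratios of vemurafenib to vehicle were -1.64, 2.98 and -4.96 on days 2, 6 and 14 for Rps27 alone. For the sum they were -0.37, -0.38 and 0.62. The Rps27 row on its own thus gave the opposite sign to the sum on days 6 and 14.

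Rpl26, a large subunit protein at the exit of the peptide tunnel, was the lowest member by mean, at 4.39, 3.66 and 27.9 FPKM with vehicle and 0.00283, 6.48 and 6.21 FPKM with vemurafenib on days 2, 6 and 14. Its copy row Gm15772, an annotated pseudogene, was at 3189, 3182 and 2392 FPKM with vehicle and 3199, 2549 and 3912 FPKM with vemurafenib. At most 1.15% of the sum was assigned to Rpl26 in any library. The copy differs from the coding sequence of Rpl26 (chr11:68715085-68720491, plus strand) at 2 of 438 bases, C177T and T288C, both without effect on the protein. Positions are counted from the A of the start codon, with the base of the member first. The stretch from position 157 to 308 is shown for both, with the differing bases in capitals, because inside the coding sequence only these bases differ between the rows; the untranslated parts were not compared.
Rpl26: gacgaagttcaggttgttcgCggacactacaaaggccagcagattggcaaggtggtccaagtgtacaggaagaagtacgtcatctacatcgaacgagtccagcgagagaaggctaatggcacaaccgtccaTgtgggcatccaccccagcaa
Gm15772: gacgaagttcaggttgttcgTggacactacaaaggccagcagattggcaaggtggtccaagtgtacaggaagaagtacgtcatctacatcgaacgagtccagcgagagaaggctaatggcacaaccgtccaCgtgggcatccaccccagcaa

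Between these differences and beyond them the coding sequences are identical, with a longest shared run of 176 bases against reads of 100 bases. The copy lies at chr5:3236431-3236868 on the plus strand. Log2 ratios of the Rpl26 row were -5.45, 0.81 and -2.15, and those of the sum were 0.00, -0.32 and 0.70 on days 2, 6 and 14.

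Rpl30 and Rpl34, both of the large subunit, had the same arrangement with more even values. Rpl30 was at 17.9 to 27.6 FPKM in all 6 libraries, and its pseudogene row Gm12191 was at 1689 to 2349.6 FPKM. The coding sequence of Rpl30 (chr15:34370260-34373395, minus strand) and the copy (chr11:49492212-49492559, minus strand) differ at 1 of 348 bases, G96A. Log2 ratios of the summed pair were 0.06, -0.39 and 0.32. Rpl34 was at 129.9, 193 and 121 FPKM with vehicle and 225, 229.6 and 196 FPKM with vemurafenib, while the row Rpl34-ps1 was at 1997 to 2956 FPKM. The pair (chr3:130429749-130433316, minus strand, and chr6:71074604-71074957, plus strand) differs at 2 of 354 bases, T132C and C318G, and neither changes the protein. The Rpl34 row was higher with vemurafenib on all 3 days, at log2 ratios of 0.79, 0.25 and 0.69, whereas the sum had 0.18, -0.29 and 0.49. The stretches around G96A and T132C are shown with the differing base in capitals.
Rpl30: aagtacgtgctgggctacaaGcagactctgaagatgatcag
Gm12191: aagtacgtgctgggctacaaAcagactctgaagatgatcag
Rpl34: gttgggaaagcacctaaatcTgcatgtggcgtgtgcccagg
Rpl34-ps1: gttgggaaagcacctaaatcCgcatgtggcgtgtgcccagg

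Rps15a, of the small subunit, was divided most evenly. It was at 64.6, 79.8 and 84.9 FPKM with vehicle and 80.4, 71.3 and 85.1 FPKM with vemurafenib, and held 27.6% to 44.5% of the pair with Rps15a-ps6, which was at 103 to 169.9 FPKM. The copy (chr11:6072647-6073039, minus strand) differs from the coding sequence of Rps15a (chr7:125247892-125259700, minus strand) at 5 of 393 bases, C7T, C117T, T150C, A164G and T301C. The change C7T turns codon 3 into a stop, and A164G and T301C change the residue. The first 184 bases of both are shown, with the 4 differing bases of this stretch in capitals.
Rps15a: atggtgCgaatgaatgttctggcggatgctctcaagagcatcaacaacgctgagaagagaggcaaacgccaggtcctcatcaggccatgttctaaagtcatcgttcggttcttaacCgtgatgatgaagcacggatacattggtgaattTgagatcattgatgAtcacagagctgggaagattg
Rps15a-ps6: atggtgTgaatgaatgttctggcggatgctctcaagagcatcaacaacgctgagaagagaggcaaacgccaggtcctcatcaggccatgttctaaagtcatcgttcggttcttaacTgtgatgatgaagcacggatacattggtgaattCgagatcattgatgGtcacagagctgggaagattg

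The log2 ratios of this sum were -0.09, -0.40 and 0.42. As deposited, each of the 5 summed pairs was thus lower with vemurafenib on day 6 and higher on day 14, as was the family as a whole (the day 6 direction of the family turns when libraries are rescaled to the same total). Among the other 7 members with a copy row, Rpl14, Rpl29, Rpl31, Rpl36a, Rplp2, Rps19 and Rps26, the member row held at least 91.9% of the pair in each library, the lowest share being that of Rpl29 with Gm8580.

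**Figure D1:**
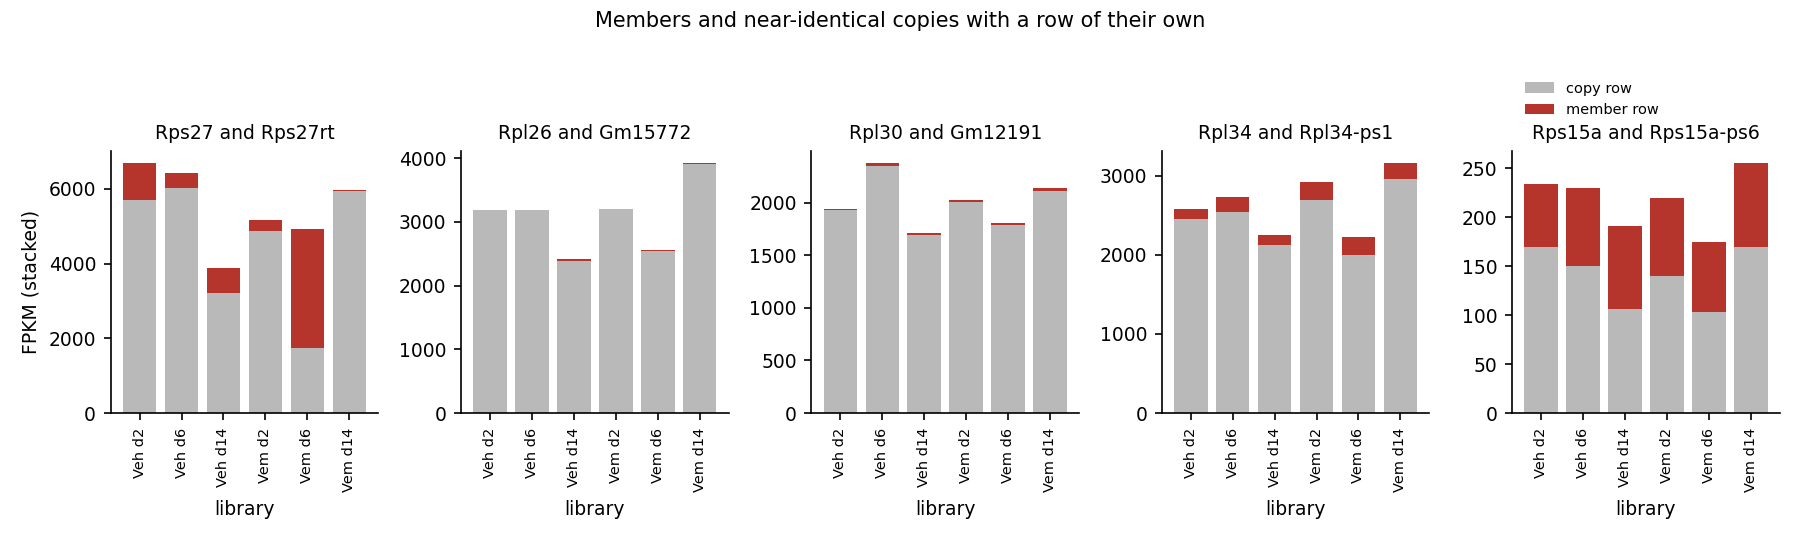
FPKM of 5 members (red) stacked on that of their near-identical copy (grey), with 1 bar for each library of vehicle (Veh) and vemurafenib (Vem) on days 2, 6 and 14. The red part of Rps27 goes from 21.2 to 3206 FPKM while the height of the whole bar varies 1.72-fold.

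As a group the members were among the most abundant transcripts in the skin. They held 21.7%, 20.2% and 16.8% of the summed FPKM in the vehicle libraries of days 2, 6 and 14, and 20.6%, 20.7% and 23.4% with vemurafenib. Between 42 and 53 of the 100 most abundant rows of a library were members. By mean FPKM, 59 members were at 1000 or more and 3, Rpl26, Rpl30 and Rps15a, under 100. The median over the 71 members without a higher copy row was 1982, 2219 and 1585 FPKM with vehicle and 2041, 1828 and 2313 FPKM with vemurafenib. Vehicle day 14 thus had the lowest and vemurafenib day 14 the highest median.

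Rplp1, an acidic protein of the stalk that recruits translation factors to the ribosome, was the highest member in every library. It was at 14400 FPKM, 10845 FPKM and 6587 FPKM in the vehicle libraries of days 2, 6 and 14, and at 10233.5, 7512 and 10654.5 FPKM with vemurafenib. After it by mean FPKM came Rpl41, the shortest ribosomal protein (7273 FPKM), then the small subunit genes Rps29 (6036), Rps12 (5741) and Rps28 (4922). The level per length was higher in the small subunit, with medians between 1877 and 2848 FPKM per library against 1291 to 1822 FPKM in the large subunit. All 5 of these genes encode short proteins, and FPKM of short transcripts depends strongly on the length correction.

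Single members differed less between libraries than most genes did. Of the 76 members 59 averaged 1000 FPKM or more, and other genes of like abundance were not compared. Across the 71 members without a higher copy row, the highest library exceeded the lowest by a median of 1.58-fold, against 2.18-fold over all genes tested, and by under 1.5-fold in 26 members, against 16.6% of all genes. The most even was Rpl31, at 485 to 591 FPKM, a range of 1.22-fold. The widest was Rplp2, at 6452, 4242 and 2104 FPKM with vehicle and 3964, 3160.2 and 4061 FPKM with vemurafenib, a range of 3.07-fold, and 14 members reached 2-fold, against 56.7% of all genes. Of the 71, 50 had their lowest value in the vehicle library of day 14 (24.2% of all genes). The highest value was with vemurafenib on day 14 in 29 of them and with vehicle on day 2 in 23, against 12.9% and 20.1% of all genes. Across these 71 genes, which are not independent replicates, Pearson's r of log2 FPKM between vehicle day 14 and the other 5 libraries was 0.905 to 0.970, and 0.968 to 0.997 between those 5 libraries.

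The first question was whether the family differed between vemurafenib and vehicle on each day. On day 2 the arms were close, with a median log2 ratio of -0.08 (quartiles -0.38 and 0.18) as deposited and 0.11 with all libraries rescaled to the same total. As deposited, 33 members were higher and 43 lower, against 49.8% and 49% of all genes tested. On day 6 nearly the whole family was lower with vemurafenib as deposited, at a median of -0.31 (quartiles -0.40 and -0.24), but not with the same total, where the median was 0.050. The deposited values had 73 members lower and 3 higher against 45% and 54.5% of all genes, and the same total 25 lower and 51 higher. On day 14 it was higher on either scale, at a deposited median of 0.57 (quartiles 0.26 and 0.75), with 72 members higher and 4 lower against 42.4% and 57% of all genes. Without the 5 members with a higher copy row, and as deposited, 71 of 71 were lower on day 6 and 69 of 71 higher on day 14. The 3 members with no near-identical copy were all lower on day 6 and higher on day 14 in the deposited values. Markers of cell types differed between the arms as well. On day 2, 8 of 8 macrophage markers (median -0.75) and 6 of 7 fibroblast markers (-0.57) were lower with vemurafenib. On day 6, 7 of 8 macrophage markers (0.98), 7 of 7 fibroblast markers (0.48) and 6 of 6 skeletal muscle markers (1.28) were higher and 7 of 7 keratinocyte markers lower (-1.28). On day 14, 6 of 6 muscle markers were higher (1.71) and 7 of 7 fibroblast markers lower (-0.89). Their part in the ratios of the family was not tested, and in whole skin fewer cells of a type and less RNA per cell cannot be told apart.

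The directions of days 2 and 6 depend on the scale set between libraries, and that of day 14 did not in the scalings tried. Scaling leaves the form of the columns as it is. On day 14 the vehicle column had 0% of its values over 6 significant digits and the vemurafenib column 50.3%. On day 2 these shares were 58.1% and 0.0056%, and on day 6 they were 52.9% and 52.3%. The part of this difference in form in the ratios of days 2 and 14 was not tested. A rescaling moves all genes of a library alike, so that the distance to other genes is nearly fixed. With the same total the median over members on day 14 was 0.43. That scaling moved the median of all genes, from 0.00, 0.04 and -0.12 to 0.18, 0.40 and -0.25. Relative to the median of all genes, the family stood at -0.08, -0.36 and 0.68 as deposited and at -0.08, -0.35 and 0.68 with the same total. Leaving Mir6236 out of the total gave members' medians of 0.09, -0.16 and 0.47 on the 3 days. Omitting the 100 most abundant genes from the total gave 0.05, -0.28 and 0.60, and upper quartile scaling gave -0.03, -0.30 and 0.59.

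As deposited, few members differed 2-fold on any day, whereas many differed 1.5-fold on day 14. At 2-fold, 2 members were lower on day 2 (3.26% of all genes), Rpl26 and Rps27, and 0 higher (1.43%). On day 6 Rps27 was the 1 member higher (5.29%) and 0 were lower (5.03%). On day 14 the 1 member higher (3.64%) was Rpl36, and Rpl26 and Rps27 were the 2 lower (7.66%). At 1.5-fold, 1 member was higher and 10 lower on day 2, against 5.61% and 9.86% of all genes, and 2 were higher and 0 lower on day 6, against 12.6% and 9.85%. On day 14, 35 of 76 members were at least 1.5-fold higher and 2 lower, against 12.7% and 22.7% of all genes. The 10 lower on day 2 were Rpl26, Rps27, Rpl18, Rpl38, Rplp2, Rps9, Rps15, Rps26, Rps28 and Rps29, named here after their values were seen.

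**Figure D2:**
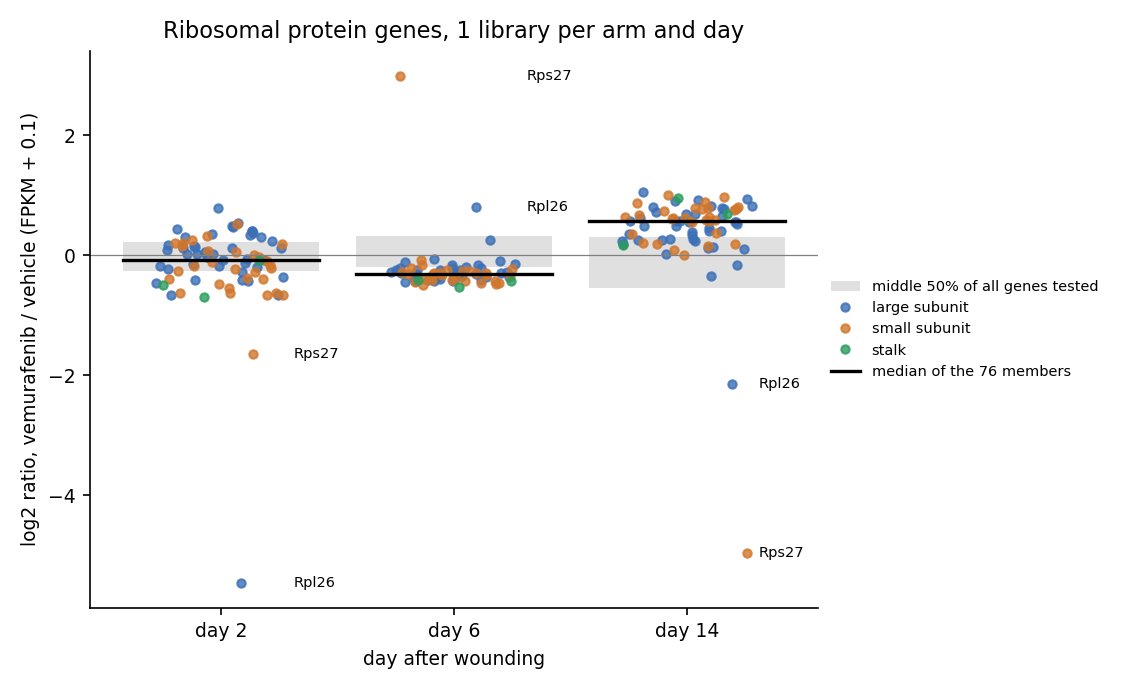
Log2 ratio of vemurafenib to vehicle (y axis, after adding 0.1 FPKM) of the 76 members on days 2, 6 and 14, coloured by subunit. Black lines are the medians of -0.08, -0.31 and 0.57 as deposited (0.11, 0.050 and 0.43 with the same total), grey bands hold the middle 50% of all genes tested, and the labelled points Rps27 and Rpl26 lie far from the rest.

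Among large subunit genes the medians were 0.02, -0.30 and 0.49. Rpl36 had the highest ratio of day 14 of all members, with 1585 FPKM in the vehicle library against 3304 FPKM with vemurafenib, a log2 ratio of 1.06. On days 2 and 6 it was at 4209.6 and 2701 FPKM with vehicle and 3129 and 2156 FPKM with vemurafenib, lower with vemurafenib on both. Vehicle alone thus spanned 1585 to 4209.6 FPKM, wider than the gap between arms on any day. Rpl41 followed the same order, with 9573, 8594 and 4401 FPKM with vehicle and 7154, 6352 and 7565 FPKM with vemurafenib.

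Rpl4 and Rpl5 did not share this pattern. Rpl5, which carries the 5S ribosomal RNA and, when free of the ribosome, binds the p53 regulator Mdm2, was at 325, 415 and 640.2 FPKM with vehicle and 419.8, 399 and 506 FPKM with vemurafenib. Its ratio on day 14, -0.34, was the lowest after those of Rps27 and Rpl26, and its highest value was in the vehicle library of that day. Rpl4, a protein that lines the peptide exit tunnel, was at 856, 1308 and 1433 FPKM with vehicle and 1243, 1099 and 1457 FPKM with vemurafenib, with log2 ratios of 0.54, -0.25 and 0.02. In both genes the vehicle library of day 2 was the lowest of the 6.

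Among small subunit genes the medians were -0.20, -0.32 and 0.62. Rps21 was at 6642, 4102 and 2549 FPKM with vehicle and 4546, 3059 and 5086 FPKM with vemurafenib, with log2 ratios of -0.55, -0.42 and 0.997. Rps15 was at 5275, 4029 and 2170.1 FPKM with vehicle and 3349, 2876 and 4274 FPKM with vemurafenib, with ratios of -0.66, -0.49 and 0.98. In both, vehicle values were lower on each later day, while those of vemurafenib were lowest on day 6. Rps18, of the subunit head, was at 4473, 3649.8 and 2532 FPKM with vehicle and 3449.6, 2576 and 4247 FPKM with vemurafenib, and its log2 ratio of -0.50 on day 6 was among the 3 lowest of that day.

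Rps12, Rps28 and Rps29, the most abundant of the small subunit, lay close to these. Rps12 was at 8037, 6074 and 3477 FPKM with vehicle and 6617, 4427 and 5816 FPKM with vemurafenib. Rps28 was at 7669.8, 5467 and 2564 FPKM with vehicle and 4934, 4208 and 4693 FPKM with vemurafenib, and Rps29 at 8418, 6721 and 3738 FPKM and 5475, 5378 and 6488 FPKM. In all 3 the vehicle library was highest on day 2 and lowest on day 14, and the range with vemurafenib was narrower. Rps7, a small subunit protein that also binds Mdm2, differed: it was at 658, 948 and 978 FPKM with vehicle and 942, 892 and 1124 FPKM with vemurafenib, with ratios of 0.52, -0.09 and 0.20. Rpsa, known also as a laminin receptor, was even across libraries, at 1149 to 1546 FPKM, with ratios of -0.02, -0.32 and 0.37.

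The 3 stalk genes had ratios of the same sign on each day in the deposited values, with unequal sizes. Rplp1 and Rplp2, which form dimers, had log2 ratios of -0.49 and -0.70 on day 2, of -0.53 and -0.42 on day 6, and of 0.69 and 0.95 on day 14. Rplp0, the protein that anchors these dimers, was at 2335, 2642 and 2405 FPKM with vehicle and 2203, 1988 and 2710.3 FPKM with vemurafenib, with ratios of -0.08, -0.41 and 0.17. Rplp0, often used as a reference gene in PCR, thus varied 1.36-fold across the 6 libraries and Rplp2 3.07-fold.

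The second comparison followed the days within each arm. With vehicle the members' median change from day 2 to day 6 had no direction that held across scales (-0.01, or 0.053 with the same total and 0.22 when the total omitted the 100 most abundant genes; as deposited 37 higher and 39 lower, with 50% and 49.5% of all genes) and was lower on day 14 than on day 6 (-0.43, or -0.14 with the same total; 68 lower and 8 higher, with 47.6% and 51.7% of all genes). With vemurafenib it was slightly lower on day 6 than on day 2 as deposited and not with the same total (-0.20 and 0.034; 69 lower and 7 higher, with 49.1% and 50.3% of all genes) and higher on day 14 than on day 6 (0.40, or 0.18 with the same total; 73 higher and 3 lower, with 49.2% and 50.3% of all genes). Relative to the median of all genes, the 4 changes were -0.01, -0.46, -0.21 and 0.40 as deposited and -0.01, -0.46, -0.20 and 0.40 with the same total. The 2 changes to day 14 share no library, but each shares its libraries with the ratios of days 6 and 14 above. At 1.5-fold, 1 member was higher and 6 lower on day 6 than on day 2 with vehicle, against 17.9% and 20.3% of all genes, and 3 were higher and 23 lower on day 14 than on day 6, against 24.8% and 20.8%. With vemurafenib 2 were higher and 0 lower over the first interval, against 16.5% and 13.6% of all genes, and 11 were higher and 1 lower over the second, against 14.9% and 22.7%. In the vehicle arm summed keratinocyte markers were at 22907 FPKM on day 6 and 4689 on day 14, and in the vemurafenib arm at 8523 and 4803 FPKM. The sum is mostly keratins and loricrin, and single markers such as Trp63 and Dsg1a were higher on day 14 than on day 6 in both arms. Their part in the changes of the family was not tested.

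**Figure D3:**
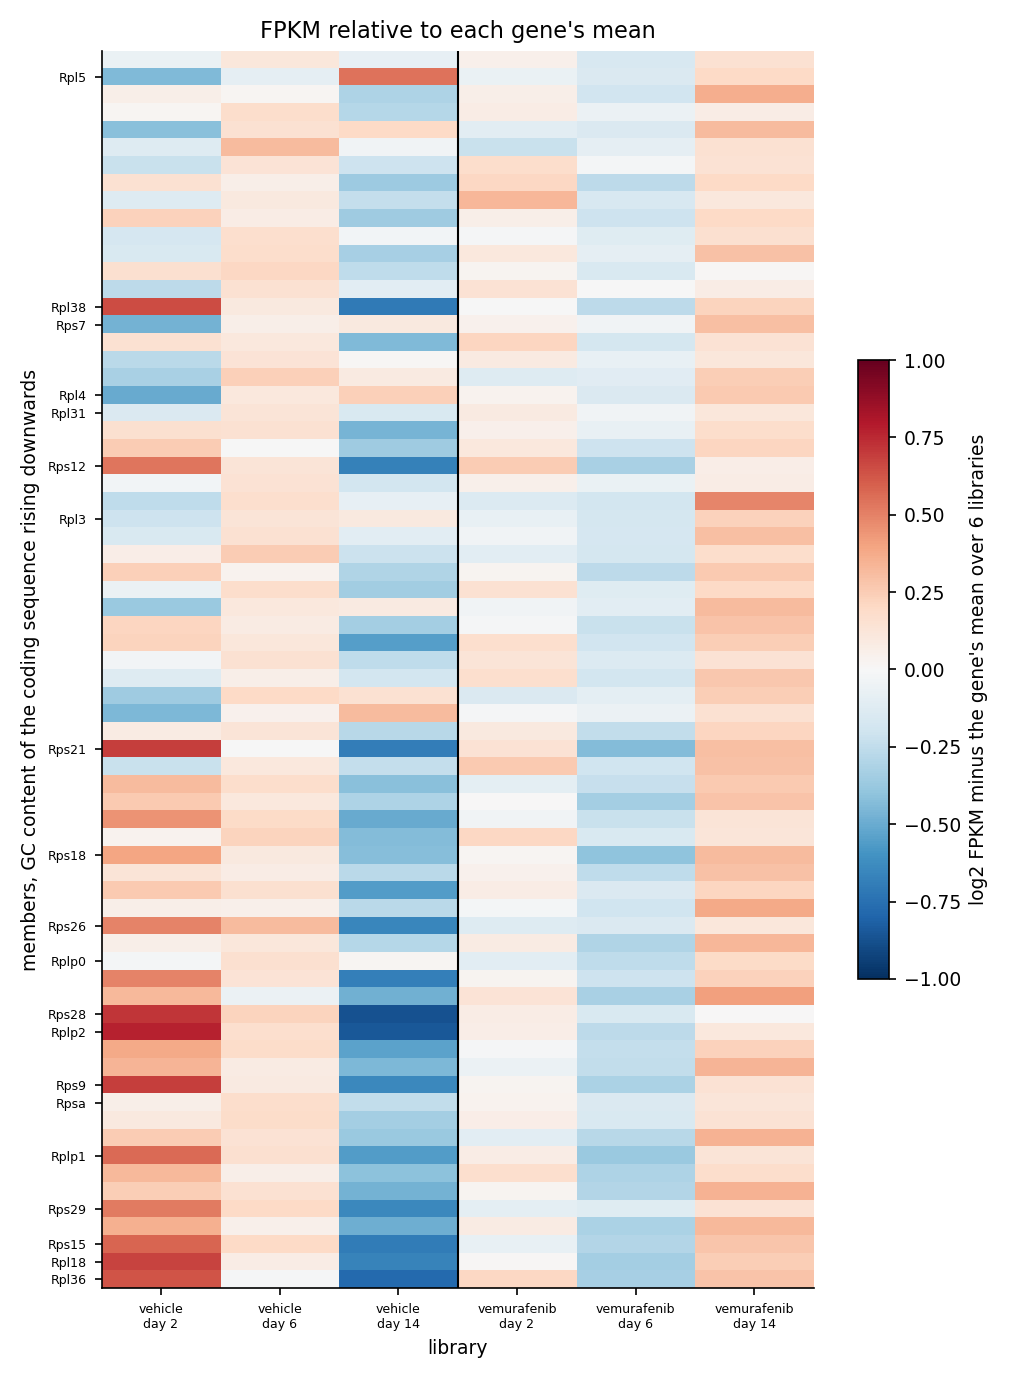
Log2 FPKM of 70 members in the 6 libraries (columns), each minus the mean of its gene, with genes (rows) ordered by rising GC content of the coding sequence, names given for some of the members described, and the scale held between -1 and 1. Vehicle day 14 is mostly blue and vemurafenib day 14 mostly red, and the contrast between the vehicle libraries of day 2 and day 14 deepens towards the bottom, where Rpl36 goes from 4209.6 to 1585 FPKM.

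The ratio of a member went with its base composition, and so did its change between days with vehicle. Over the 70 members with a gene model and no higher copy row, Spearman's rho between the GC content of the coding sequence and the log2 ratio was -0.61, -0.60 and 0.62 on days 2, 6 and 14. The 23 members with the lowest GC content (44.2% to 50.8%) had median ratios of 0.15, -0.25 and 0.26. The 23 with the highest (54.6% to 61.3%) had -0.39, -0.38 and 0.79. On day 14, 20 of them and 5 of the low-GC group were at least 1.5-fold higher, against 12.7% of all genes tested. The share among other genes of like GC content was not counted. Genes outside the family showed a relation of the same sign on each day, with rho of -0.24, -0.19 and 0.46 over 12018 genes. For changes from day 2 to 6, day 6 to 14 and day 2 to 14, the members' rho was -0.59, -0.56 and -0.61 with vehicle. With vemurafenib it was -0.31, 0.45 and 0.15. Over the other genes it was 0.01, -0.37 and -0.24 with vehicle and 0.03, 0.10 and 0.11 with vemurafenib. On day 14 both groups of members stood above the other genes set beside them. Other genes with a GC content up to that of the low group had a median of -0.46 (4385 genes). Those from that of the high group upward had 0.15 (5217 genes). On day 6 the medians of those other genes were 0.13 and -0.03, above both groups of members. All points of a day come from the same pair of libraries, and genes are not replicates, so these values describe the libraries. With coding length, rho was 0.32, 0.10 and -0.47 over the members and -0.05, 0.07 and -0.24 over the 12018 other genes. The other genes set beside the groups were not matched to members in length. Whether base composition entered through the libraries was not tested.

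**Figure D4:**
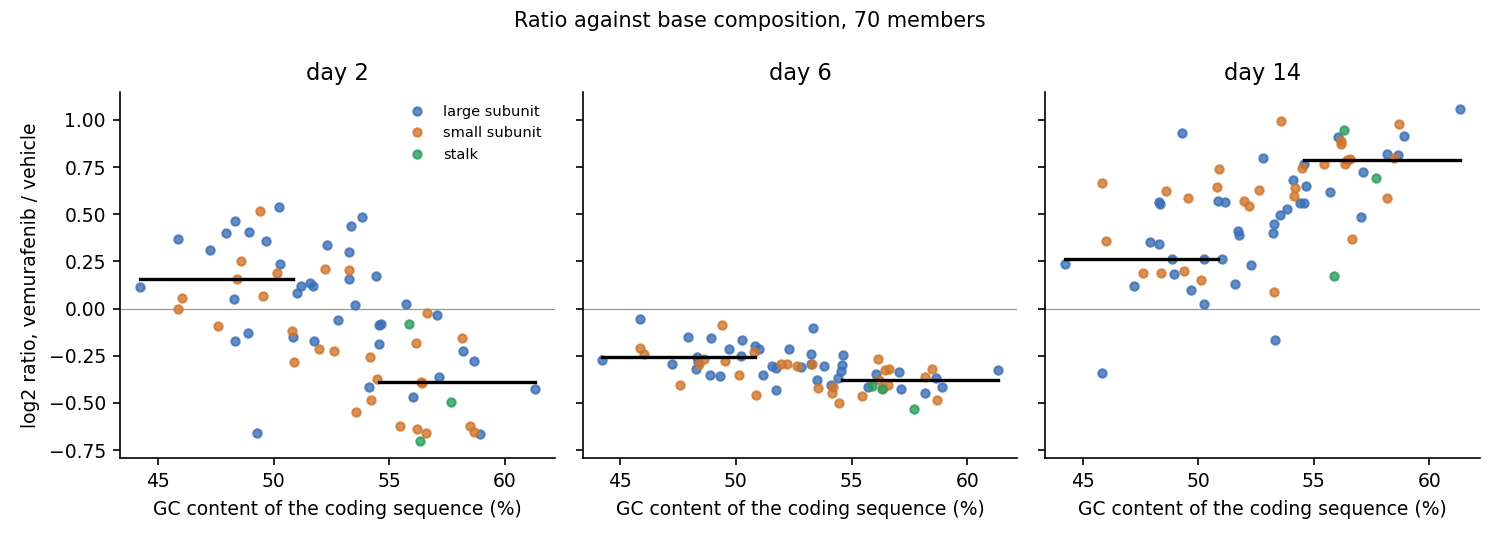
Log2 ratio of vemurafenib to vehicle (y axis) against the GC content of the coding sequence in percent (x axis) for 70 members on days 2, 6 and 14, coloured by subunit, with black lines at the medians of the 23 members lowest and the 23 highest in GC. The lines lie at 0.15 and -0.39 on day 2, at -0.25 and -0.38 on day 6 and at 0.26 and 0.79 on day 14.

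The family also shared a sequence feature at the start of transcription. A tract was counted where a C was followed by at least 5 pyrimidines (C or T) on the sense strand within the 10 bases before and 20 bases after the annotated start, in RefSeq windows of GRCm38.p6. It was present in 33 of the 56 members with a window (58.9%), in 26.8% of 9810 genes tested, in 24.9% of all 27025 genes with a window and in 26.9% of 67 genes of the mitochondrial ribosome. A gene was counted if any of its annotated starts had a tract. A match is a run of letters and no more, and the annotated start may lie some bases from the real one. Windows of 5 members that held a tract, chosen by high mean FPKM and not by ratio, are shown with the tract in capitals: Rps12 (chr10:23787190-23787219, minus strand), Rpl38 (chr11:114668570-114668599, plus strand), Rps21 (chr2:180257369-180257398, plus strand), Rplp2 (chr7:141447641-141447670, plus strand) and Rps26 (chr10:128626487-128626516, minus strand).
Rps12: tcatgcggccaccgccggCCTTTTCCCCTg
Rpl38: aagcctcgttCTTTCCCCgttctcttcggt
Rps21: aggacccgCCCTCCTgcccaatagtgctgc
Rplp2: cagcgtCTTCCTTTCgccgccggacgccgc
Rps26: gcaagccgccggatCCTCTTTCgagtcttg

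Genes related to the family by role were set beside it. Fau, which encodes a protein of the small subunit fused to a ubiquitin-like protein and was left out by its symbol, lay with the members. It was at 3591, 2355 and 1351 FPKM with vehicle and 2354, 1838 and 2648 FPKM with vemurafenib. Its log2 ratios were -0.61, -0.36 and 0.97. Fau was thus lower with vemurafenib on days 2 and 6 and higher on day 14 in the deposited values.

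The paralogues of members did not form 1 pattern. Of 8 listed, 7 were tested, and Rpl10l was listed at 0 in all 6 libraries. Rpl36al was at 636 to 1464 FPKM with ratios of -0.37, -0.36 and 0.67. Rps27l was at 239 to 432 FPKM with ratios of 0.41, -0.04 and 0.31, and Rpl22l1 at 166 to 341 FPKM with 0.21, -0.28 and 0.19. Rpl3l, the form of Rpl3 found in striated muscle, was at 42.1, 9.82 and 4.03 FPKM with vehicle and 54.4, 22.5 and 21.1 FPKM with vemurafenib, with ratios of 0.37, 1.19 and 2.36. The 6 skeletal muscle markers had medians of 0.18, 1.28 and 1.71 in the same libraries. Rps4l had ratios of -0.87, 0.18 and 1.11, Rpl39l of -0.70, 0.37 and -0.03, and Rpl7l1 of 0.01, -0.09 and -0.05.

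The proteins of the mitochondrial ribosome, a separate particle, gave 76 genes with medians of 0.09, -0.07 and 0.41; 45, 24 and 65 of them were higher on days 2, 6 and 14. On day 14, 21 of these passed 1.5-fold upward and 0 downward, and on day 6 none did either way (0 of 76). A list of 18 genes known for such a tract, translation factors such as Eef1a1 together with Tpt1, Npm1 and others, held it in 6 of 11 genes with a window and had medians of 0.20, -0.16 and 0.05. Of these, 1 was higher and 1 lower at 1.5-fold on day 14. The 36 genes of ribosome biogenesis had medians of -0.08, -0.14 and 0.15, with 7 higher and 3 lower at 1.5-fold on day 14. The 10 regulators of ribosome production, Myc and Mtor among them, had medians of 0.03, 0.07 and -0.21. On day 14 the members' median of 0.57 thus exceeded that of each of these 4 lists, and on day 6 their median of -0.31 was the lowest.

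A difference common to all days, or between days in both arms, was tested with limma on log2(FPKM + 0.1) of 13392 genes, with arm and day as terms and 2 residual degrees of freedom. In this fit 0 of 76 members were called between arms at an adjusted p under 0.05 (0.00747% of all genes), and 0 had an unadjusted p under 0.05. Between day 6 and day 2, and between day 14 and day 6, 0 members were called (4.75% and 3.64% of all genes), and 0 had an unadjusted p under 0.05. Between day 14 and day 2, 0 were called against 17.9% of all genes, and 1 had an unadjusted p under 0.05. That was the Rpl26 row, higher on day 14 in both arms, at a log2 difference of 4.29 (SE 1.26, limma adjusted p = 0.0643). Its sum with Gm15772 was at 3193.7 and 2419.7 FPKM on days 2 and 14 with vehicle and at 3198.8 and 3918.7 FPKM with vemurafenib, lower on day 14 in 1 arm and higher in the other. The Rpl26 row alone changed by a log2 of 2.64 with vehicle and of 5.94 with vemurafenib, the latter from 0.00283 FPKM on day 2. Leaving out 1 library, the log2 difference ran from 1.90 without vemurafenib day 2 to 6.68 without vehicle day 2. With all 6 libraries, its limma adjusted p ran from 0.0382 (same total) to 0.343 (no filter on the mean). The median log2 difference between arms over the members was 0.04, with a median SE of 0.33. A p that misses the threshold does not show that members did not differ between arms or days. This fit averages the 3 days, and the medians of days 6 and 14 had opposite signs as deposited.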

How the data were processed

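RNA of wounded skin was sequenced in 6 libraries, 1 for each arm and day. The authors mapped reads to mm9 with TopHat and made FPKM with cuffquant, with correction for fragment bias and for reads that align to several places, and cuffnorm; the submitters' notes also name TopHat2 and Cuffdiff, without versions. The deposited FPKM were used as they stand, and 27 of 23940 rows whose symbols had become dates were left out. The methods describe paired reads of 100 bases and the labels single-end reads. Depth is unknown, so that no counting interval is given.

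Log2 ratios were taken after adding 0.1 FPKM, in the 13392 genes whose FPKM averaged 1 or more. Counts, medians and shares are descriptions. A common effect was fitted with limma 3.58.1 (R 4.3.3) on log2(FPKM + 0.1), with arm and day as terms, a mean-variance trend and Benjamini-Hochberg adjustment over all genes; the code was tested on simulated data. Groups came from the sample labels. Copies were found with blastn 2.17.0 in NCBIM37 with GENCODE gene models, at 95% identity over 80% of the coding sequence, taken from the first-numbered curated transcript or, where there is none, the longest. Tracts were read from RefSeq windows (GRCm38.p6), matched by symbol for 56 of 76 members. Python 3.11.15, pandas 2.3.3, numpy 2.4.6, Biopython 1.88 and matplotlib 3.10.9 were used otherwise.

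The members and gene lists were chosen with earlier results of these data known. Members were named by rule: the 3 highest and 3 lowest ratios of each day, the 5 highest and 3 lowest means, members past 2-fold, the 3 highest and 3 lowest changes between days averaged over both arms, and the stalk genes with Rpsa, beside paralogues, Fau and copy rows. Genes named outside it, as in lists of those past 1.5-fold, were chosen after their values were seen. Alternatives were another pseudocount, other filters, 5 other scalings or centrings, the mean for the median, members without copies, and leaving out libraries. Leaving out the 5 members with a higher copy row, adding copy rows and the total without Mir6236 were chosen after seeing the data. Some of the genes named by rule are not reported here.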

Additional observations from a re-analysis of the deposited data

Results flagged for a closer look

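The median log2 ratio of vemurafenib to vehicle over the members had opposite signs on day 6 and day 14 in the deposited FPKM, -0.31 and 0.57, with 73 of 76 members lower on day 6 and 72 higher on day 14. With the same total in each library the day 6 median was 0.050. With 1 library per arm and day the difference between days was not tested, here or in the genes that follow.

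At 1.5-fold or more, 10 of 76 members had opposite signs on different days, against 10.9% of all genes tested. Rplp2 had log2 ratios of -0.70 on day 2 and 0.95 on day 14, Rps15 of -0.66 and 0.98, Rps28 of -0.64 and 0.87, and Rps29 of -0.62 and 0.80. Rpl18 (-0.66 and 0.92), Rpl38 (-0.66 and 0.93), Rps9 (-0.66 and 0.79) and Rps26 (-0.62 and 0.77) did likewise. In these 8 genes the vehicle library of day 2 was the highest of the 6 and that of day 14 the lowest. Choosing genes below vehicle on day 2 and above it on day 14 in part sets this order.

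Rps27 had ratios of -1.64, 2.98 and -4.96 on days 2, 6 and 14, and Rpl26 of -5.45, 0.81 and -2.15. The sums with their copy rows had -0.37, -0.38 and 0.62 for Rps27 and 0.00, -0.32 and 0.70 for Rpl26.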

How the results depend on the processing

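No paired analysis was possible by replicate number, because each group has 1 library; the limma fit takes day as a term and so compares the arms within days. Of the values recomputed under alternatives, 128 kept their sign and stayed within the spread or 1.5-fold, 46 moved further and 8 turned in sign. With the same total, the members' median turned to 0.11 on day 2 and 0.050 on day 6, and their change from day 2 to day 6 to 0.053 with vehicle and 0.034 with vemurafenib; their changes from day 6 to day 14 became -0.14 with vehicle and 0.18 with vemurafenib, 2 members were 2-fold apart on day 6, and 24 in place of 37 were 1.5-fold apart on day 14. The total without Mir6236 gave 0.092 on day 2 and -0.16 on day 6. When the total omitted the 100 most abundant genes, the median of day 2 was 0.047, the change from day 2 to day 6 with vehicle 0.22, the change from day 2 to day 6 with vemurafenib -0.062, 7 members in place of 11 were 1.5-fold apart on day 2, and 5 in place of 3 were 2-fold apart on day 14. Upper quartile scaling turned the vehicle change from day 2 to day 6 to 0.089 and also gave 5 on day 14, and centring on the median gene 10. The share of all genes past these thresholds was not counted under these scalings, so these counts do not set the members apart from other genes.

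The 3 members with no near-identical copy changed by a median of -0.34 from day 2 to day 6 and by 0.63 from day 6 to day 14 with vemurafenib. Of these 3, 0 were 2-fold apart on any day, and 0, 0 and 2 were 1.5-fold apart on days 2, 6 and 14. They held 0.657%, 0.622% and 0.571% of the summed FPKM with vehicle and 0.643%, 0.609% and 0.793% with vemurafenib. Without the 5 members with a higher copy row, and likewise with copy rows added, 0, 0 and 1 members were 2-fold apart on the 3 days, and 0 were 1.5-fold apart on day 6. Leaving the 100 most abundant other genes out of the total, members held 29.5%, 30.7% and 22.5% with vehicle and 27.6%, 26.4% and 31.3% with vemurafenib.

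By limma, 1 member, Rpl26, was called between day 14 and day 2 with the same total and with upper quartile scaling. In these settings 2036 and 2510 of 13392 genes were called. For fits that left out 1 library, calls are not given, because the day concerned keeps 1 library. In them the log2 difference of Rpl26 between day 6 and day 2 ran from 0.48 to 5.26. Between day 14 and day 2 it ran from 1.90 to 6.68. Without vehicle day 6, the log2 difference of Rps27 was 4.20 between day 6 and day 2 (1.06 with all libraries). Between day 14 and day 6 it was -6.40 (-3.26 with all libraries). Such fits leave 1 residual degree of freedom and take the remaining library of that day to vary like the others. Where no cause is given, it was not tested. Depth, which FPKM do not hold, limits low rows such as Rpl26 most.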
